A study of Rattus norvegicus with 9 samples.

Results

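Voltage-gated calcium channels were followed in the dorsal root ganglion (DRG) of rats as 10 genes: the α2δ subunits Cacna2d1, Cacna2d2 and Cacna2d3, the β subunits Cacnb3 and Cacnb4, and the pore-forming α1 subunits Cacna1a, Cacna1b, Cacna1c, Cacna1e and Cacna1h. They were chosen by gene symbol from the 20194 genes in the deposited table. All 10 were found and all 10 passed the filter on low values.

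These channels open when a neuron is depolarised and let calcium into the cell, where it triggers transmitter release, changes firing and acts on gene expression. The α1 subunit forms the pore and decides the current type, the β subunit binds it inside the cell, and the α2δ subunit is anchored outside the membrane and helps carry the complex to axons and terminals. In sensory neurons the N-type channel releases transmitter onto the spinal cord, T-type channels set excitability near threshold, and the α2δ proteins of Cacna2d1 and Cacna2d2 are the binding sites of gabapentin and pregabalin.

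RNA was taken from the DRG of adult male Sprague Dawley rats. The sham group (3 libraries) had the operation without nerve injury. The SNI group (3 libraries) had spared nerve injury, in which the tibial and common peroneal branches of the sciatic nerve are tied and cut while the sural branch is left. The SNI_G15 group (3 libraries) had SNI and G15, an antagonist of the G protein-coupled oestrogen receptor GPER, given intrathecally. The protocol given for all 9 libraries has an intrathecal catheter placed on day 5 and drugs dissolved in DMSO. The titles mark the sham and SNI libraries as controls for G15, and the sources used here do not state whether those rats received vehicle. The methods name as many rats per group as there are libraries, the list of animals gives more, and the labels do not say whether a library is 1 rat or a pool. The titles of the 3 SNI_G15 libraries share 1 SNI number, so the p-values below measure the spread between these libraries, which may be technical. In bulk tissue, fewer cells of a type and less RNA per cell cannot be told apart.

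Each library held between 18484557 and 18756736 estimated reads in genes. The deposited table gives FPKM (fragments scaled to transcript length and library size, so a level per length) and an estimated read count. Levels below are FPKM. Differences are log2 fold changes from edgeR's quasi-likelihood test on the counts, and adjusted p is by Benjamini-Hochberg over 14305 genes, those that reached 1 FPKM in any of the 9 libraries. Neuron markers summed to 8723 to 9049 FPKM in sham, between 9471 and 9748 in SNI and between 9744 and 10176 in SNI_G15. This sum leans on its highest genes and does not show a rise of the markers as a set. At an adjusted p below 0.05, 2 of the 10 were higher and 4 lower in SNI vs sham (median log2 fold change -0.088). Over all genes tested, 23.3% were higher and 22.4% lower. For SNI_G15 vs sham, 2 of the 10 markers were higher and 5 lower (median -0.17), beside 21.4% and 21.9% of all genes tested. Mean Tubb3 was 2295 FPKM for sham and 2992 for SNI, while mean Rbfox3 was 88.8 and 60.3. Schwann cell markers summed to 5215 to 5344, 2918 to 2979 and 3130 to 3260 FPKM for sham, SNI and SNI_G15. Macrophage markers summed to 82.6 to 90.4, 185 to 204 and 203 to 219 FPKM. The 5 nerve injury markers, which include Atf3 and Gal, summed to 172 to 186 FPKM in sham, between 1517 and 1553 in SNI and between 1553 and 1714 in SNI_G15, so the labelled injury was seen in the RNA of all 6 SNI libraries.

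After SNI, 6 of the 10 channel genes changed. Cacna2d1 and Cacna1b rose, Cacna1h, Cacna2d2, Cacna2d3 and Cacnb3 fell, and Cacna1a, Cacna1c, Cacna1e and Cacnb4 did not pass the test. Over all genes tested, 45.7% were called between SNI and sham (23.3% higher and 22.4% lower), so 6 of 10 is to be read against a background in which nearly as large a share changed. The 6 genes called were also those whose FPKM ranges did not overlap, which held for 53.9% of all genes tested. The median log2 fold change of the 10 genes was -0.10, beside 0.0010 over all genes. Between SNI_G15 and SNI none of the 10 was called.

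**Figure D1:**
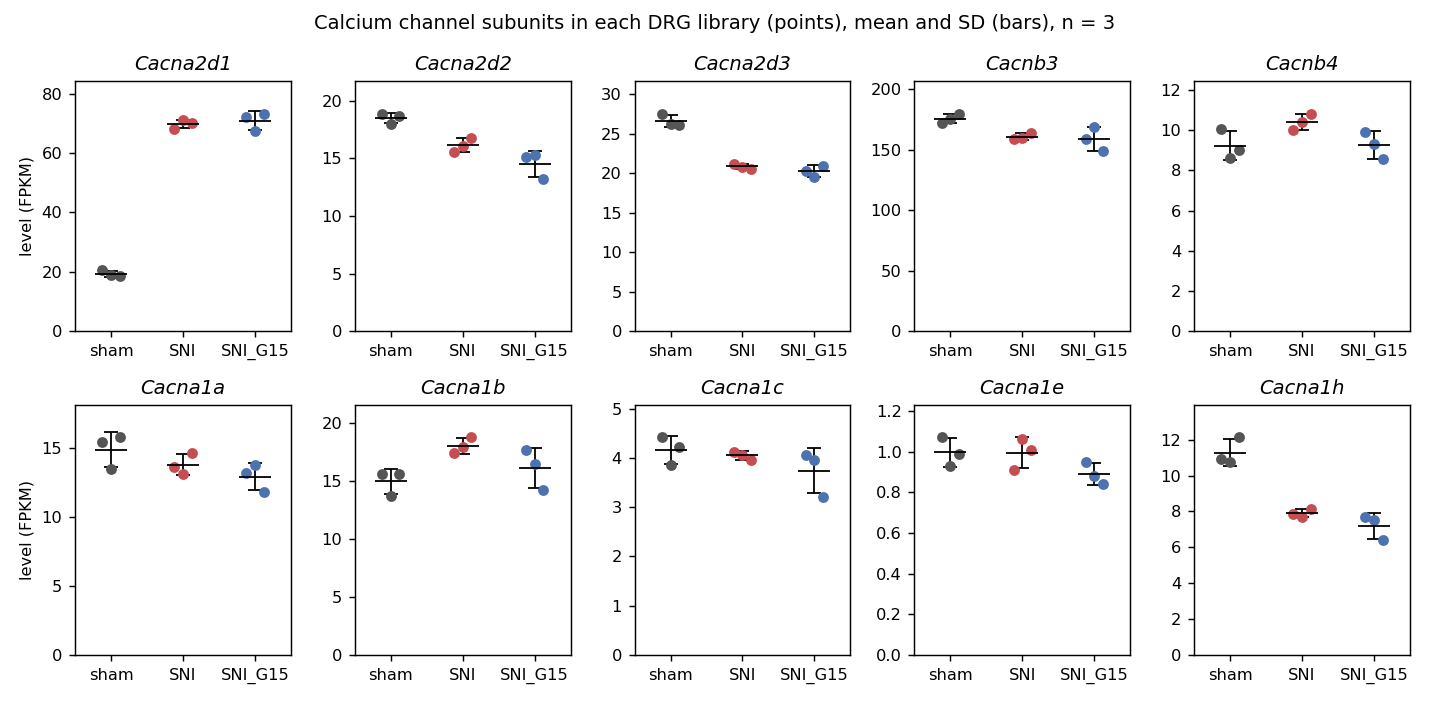
Level (FPKM, vertical axes from 0) of each of the 10 calcium channel subunit genes in each library of the sham, SNI and SNI_G15 groups (points, with the mean and SD of 3 as bars). The 3 sham libraries of Cacna2d1 sit between 18.7 and 20.6 FPKM and all 6 injured libraries between 67.3 and 73.3.

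The α2δ genes moved in opposite directions. Cacna2d1 (NCBI gene ID 25399), the α2δ subunit bound with highest affinity by gabapentin, was at 20.59, 18.95 and 18.68 FPKM in the 3 sham libraries, at 68.20, 71.10 and 70.00 in SNI and at 72.05, 67.29 and 73.26 in SNI_G15. Every injured library lay above every sham library. The mean was 19.4 ± 1.03 in sham, 69.8 ± 1.46 in SNI and 70.9 ± 3.16 in SNI_G15 (SD, n = 3), a 3.59-fold higher level in SNI than in sham. Its log2 fold change was 1.82 (SE 0.041, adjusted p = 2.45e-10), with values of 1.77 to 1.88 under the 15 alternatives tried.

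Cacna2d3 (gene ID 306243), an α2δ subunit known for its part in noxious heat sensing, was the α2δ gene with the highest level in sham, at 27.56, 26.30 and 26.11 FPKM. It was at 21.23, 20.85 and 20.55 in SNI and at 20.29, 19.48 and 20.99 in SNI_G15. The sham libraries lay above both injured groups. It fell by 21.7% from sham to SNI (log2 fold change -0.38, SE 0.041, adjusted p = 2.88e-05).

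Cacna2d2 (gene ID 300992), the other subunit that binds gabapentin, was at 18.88, 17.98 and 18.67 FPKM in sham, 15.58, 16.04 and 16.77 in SNI and 15.09, 15.30 and 13.24 in SNI_G15. The 3 groups did not overlap. It fell by 12.9% from sham to SNI (log2 fold change -0.22, SE 0.043, adjusted p = 0.00164). The fourth family gene, Cacna2d4, was below the filter, with at most 0.09 FPKM in any library.

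The composition of the α2δ class therefore differed between sham and injured DRG. Cacna2d1 made up 30.0% ± 0.64 of the summed α2δ FPKM in sham, 65.3% ± 0.45 in SNI and 67.0% ± 1.10 in SNI_G15 (SD, n = 3). Cacna2d3 went from 41.3% to 19.6% and 19.2%, and Cacna2d2 from 28.7% to 15.1% and 13.8%. The summed level was 64.6 ± 2.13 FPKM in sham, 107 ± 1.56 in SNI and 106 ± 3.14 in SNI_G15. For all 3 genes the sham shares lay apart from the SNI shares (two-sided exact permutation test, p = 0.1 for each, the smallest that 3 against 3 allows, so no share can pass 0.05 in this design). Shares of a class add up to a whole, so the rise of Cacna2d1 by itself lowers the other shares. The 3 p-values are therefore not separate results. In level, Cacna2d3 fell by 21.7% and Cacna2d2 by 12.9% from sham to SNI.

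**Figure D2:**
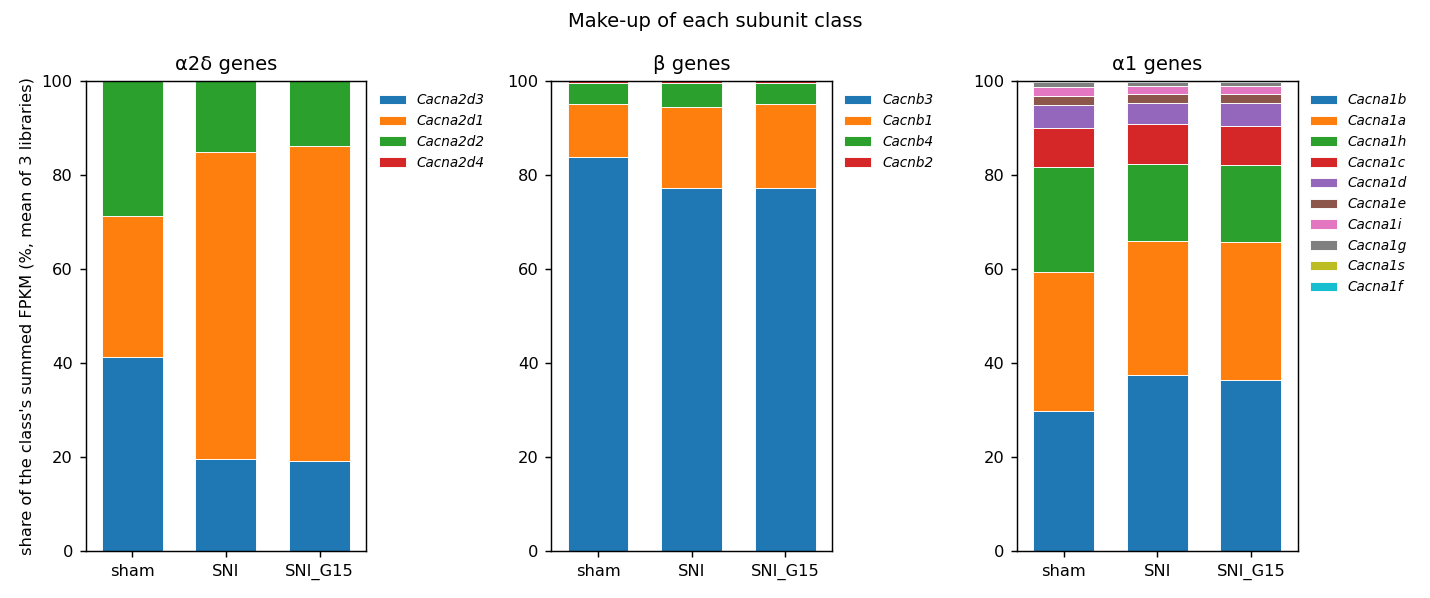
Share of each gene (%, mean of 3 libraries) in the summed FPKM of the α2δ, β and α1 classes in the sham, SNI and SNI_G15 groups. The orange band of the left panel, Cacna2d1, goes from 30.0% in sham to 65.3% in SNI and 67.0% in SNI_G15.

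The start regions of Cacna2d1 and Cacna2d3 are shown because these are the α2δ genes that moved most, in opposite directions. RefSeq promoters of GRCr8 were matched for 8 of the 10 genes, with 10 start windows in all. The 250 bases before the most upstream Cacna2d1 start (chr4:20330148-20330397, minus strand) and before the Cacna2d3 start (chr16:4918900-4919149, minus strand) read as follows, 5′ to 3′ on the strand of the gene, with GC boxes (GGGCGG on either strand, the letters bound by Sp1-type factors) in capitals.
Cacna2d1: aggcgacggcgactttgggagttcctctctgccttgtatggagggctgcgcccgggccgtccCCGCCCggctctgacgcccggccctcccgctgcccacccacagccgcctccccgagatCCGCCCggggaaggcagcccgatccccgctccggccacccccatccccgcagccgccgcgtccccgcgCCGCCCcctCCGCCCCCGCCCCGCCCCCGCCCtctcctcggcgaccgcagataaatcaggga
Cacna2d3: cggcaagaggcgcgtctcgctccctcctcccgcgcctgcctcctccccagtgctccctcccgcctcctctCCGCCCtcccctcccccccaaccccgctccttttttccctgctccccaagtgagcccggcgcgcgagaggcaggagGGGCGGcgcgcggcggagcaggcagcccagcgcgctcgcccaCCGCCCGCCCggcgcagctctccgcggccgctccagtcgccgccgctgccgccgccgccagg
The Cacna2d1 window held 7 GC boxes, some of them overlapping, and 77.2% G or C. The Cacna2d3 window held 4 and 78.8% G or C. A GC box was found in 8 of the 10 windows, of which 3 belong to Cacna2d1 and overlap in part, and in 30.5% of 33469 start windows of the table. The median G and C content over all windows was 51.2%. The AP-1 letters TGACTCA, present in 4.05% of all windows, and the CRE letters TGACGTCA, present in 1.59%, were searched on both strands and were in none of the 10 windows. These are matches of letters in 250 bases and nothing was tested on them.

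Among the β genes, Cacnb3 (gene ID 25297), the main neuronal β subunit of N-type channels, had the highest level of all 10 genes in every group. It was at 171.81, 175.48 and 179.74 FPKM in sham, 158.93, 159.36 and 163.93 in SNI and 158.98, 168.31 and 148.63 in SNI_G15. Sham did not overlap with either injured group, whereas SNI_G15 spanned the SNI values. Cacnb3 fell by 8.50% from sham to SNI (log2 fold change -0.16, SE 0.034, adjusted p = 0.00249).

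Cacnb4 (gene ID 58942), a β subunit of P/Q-type channels, was at 10.06, 8.63 and 9.01 FPKM in sham, 10.03, 10.41 and 10.82 in SNI and 9.93, 9.29 and 8.55 in SNI_G15. The SNI libraries overlapped with sham and lay above all SNI_G15 libraries. The log2 fold change from sham to SNI was 0.14 (SE 0.057, adjusted p = 0.0626), with a 95% interval of 0.017 to 0.27. Without sham replicate 1, the highest of its group, it was 0.20 (adjusted p = 0.0118). With libraries scaled to neuron markers it was also 0.20 and passed (adjusted p = 0.0153). These were the 2 of 15 alternatives in which it passed. Cacnb3 took 83.9% of the summed β FPKM in sham, 77.3% in SNI and 77.2% in SNI_G15, while the class sum was 209 ± 3.91, 208 ± 3.22 and 205 ± 10.7 FPKM. From sham to SNI the share of Cacnb3 was lower by 6.59 points, while that of Cacnb1, which is described with the other family genes, was higher by 6.00 points and that of Cacnb4 by 0.60.

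Among the 5 α1 genes, Cacna1h fell and Cacna1b rose after SNI. Cacna1h (gene ID 114862), the T-type pore that prevails in sensory neurons, was at 10.90, 10.78 and 12.13 FPKM in sham, 7.85, 7.70 and 8.16 in SNI and 7.67, 7.52 and 6.38 in SNI_G15. All sham libraries lay above all injured libraries. It fell by 29.9% from sham to SNI (log2 fold change -0.54, SE 0.053, adjusted p = 1.56e-05), the largest fall among the 10 genes.

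Cacna1b (gene ID 257648), the N-type pore and target of ziconotide, was at 15.54, 13.72 and 15.56 FPKM in sham, 17.39, 17.89 and 18.73 in SNI and 17.61, 16.41 and 14.24 in SNI_G15. SNI lay above sham, and SNI_G15 overlapped with both. It rose by 20.5% from sham to SNI (log2 fold change 0.24, SE 0.053, adjusted p = 0.00410). Against sham, the SNI_G15 value was 0.068 (SE 0.079, adjusted p = 0.524, 95% interval -0.11 to 0.24). With gene length as an offset in the fit, a setting added after the data were seen, it was 0.18 and passed (adjusted p = 0.00976).

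The remaining α1 genes did not pass the test after SNI. Cacna1a (gene ID 25398), the P/Q-type pore, was at 15.43, 13.47 and 15.78 FPKM in sham, 13.61, 13.14 and 14.65 in SNI and 13.20, 13.76 and 11.84 in SNI_G15, with a log2 fold change from sham to SNI of -0.14 (SE 0.062, adjusted p = 0.0910). Its groups overlapped, and without sham replicate 2, which was below the other sham libraries, the value was -0.21 (adjusted p = 0.00808). It also passed with the replicate block (-0.14, adjusted p = 0.0255) and with the length offset (-0.19, adjusted p = 0.00556). Cacna1c (gene ID 24239), an L-type pore that couples calcium entry to transcription, ranged from 3.85 to 4.42 FPKM in sham, between 3.96 and 4.13 in SNI and between 3.21 and 4.06 in SNI_G15. Its difference from sham to SNI was -0.069 (95% interval -0.19 to 0.054), and with the length offset it was -0.13 and passed (adjusted p = 0.0314). Cacna1e (gene ID 54234), the R-type pore, was the lowest of the 10, with 0.93 to 1.07 FPKM in sham, between 0.91 and 1.06 in SNI and between 0.84 and 0.95 in SNI_G15, and a difference of -0.030 (95% interval -0.20 to 0.14).

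In share of the summed α1 FPKM, Cacna1b went from 29.7% ± 0.42 in sham to 37.3% ± 0.52 in SNI and 36.4% ± 1.03 in SNI_G15, and Cacna1h from 22.4% ± 1.10 to 16.4% and 16.3%. Cacna1a held 29.6%, 28.6% and 29.3%. Cacna1a and Cacna1b were level in sham, at 14.9 ± 1.25 and 14.9 ± 1.06 FPKM, and their ranges no longer overlapped in SNI. The α1 sum itself was 50.3 ± 3.36 FPKM in sham, 48.2 ± 1.63 in SNI and 44.1 ± 4.0 in SNI_G15.

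Ordered by level per length, sham DRG ran from Cacnb3 through Cacna2d3, Cacna2d1, Cacna2d2, Cacna1b, Cacna1a, Cacna1h, Cacnb4 and Cacna1c to Cacna1e. Of these neighbours, Cacna2d1 and Cacna2d2 overlapped in range, as did Cacna1b and Cacna1a. After SNI, Cacna2d1 was second to Cacnb3, Cacna1b stood above Cacna2d2, and Cacnb4 above Cacna1h. No neighbouring ranges overlapped in SNI. In SNI_G15 the order of the means was that of SNI, with overlapping ranges from Cacna1b to Cacna2d2 and from Cacna2d2 to Cacna1a.

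**Figure D3:**
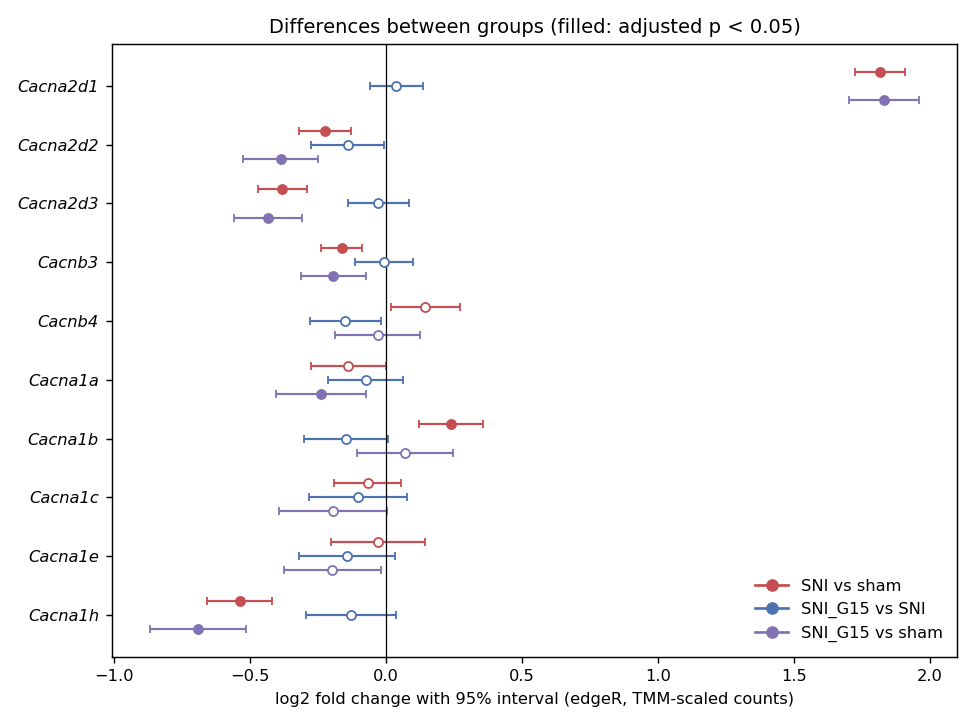
Log2 fold change (horizontal axis) with 95% interval of each gene in SNI vs sham, SNI_G15 vs SNI and SNI_G15 vs sham, from edgeR, with points filled where the adjusted p is below 0.05. Cacna2d1 lies at 1.82 and 1.83 in the comparisons with sham, and none of the SNI_G15 vs SNI points is filled.

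The SNI_G15 vs SNI comparison asks whether blocking GPER after injury altered these genes. In edgeR's quasi-likelihood test 0 of 10 passed at an adjusted p below 0.05, beside 15.2% of all genes tested (7.98% higher and 7.25% lower). At an unadjusted p below 0.05 there were 2, Cacnb4 and Cacna2d2, whose adjusted p were 0.109 and 0.137. DESeq2 called 0 (3 at an unadjusted p below 0.05) and limma called 0 (1 unadjusted). FPKM ranges did not overlap for 3 genes, Cacna1h, Cacna2d2 and Cacnb4, beside 38.3% of all genes tested.

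The values of 9 of the 10 genes were below 0, with a median of -0.12 beside 0.0063 over all genes. The lowest were Cacnb4 at -0.15 (95% interval -0.28 to -0.021), Cacna1b at -0.15 (-0.30 to 0.0074) and Cacna1e at -0.14 (-0.32 to 0.032). The exception was Cacna2d1 at 0.037 (-0.061 to 0.13), beside 1.82 in the injury comparison. Cacna2d2 was at -0.14, with an interval of -0.28 to -0.0072 that, like that of Cacnb4, did not reach 0. Cacna1h was at -0.13 (-0.30 to 0.036), Cacna2d3 at -0.029 (-0.14 to 0.082) and Cacnb3 at -0.0080 (-0.11 to 0.097).

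Gene length and 1 library moved with these values. Channel transcripts are long (effective lengths of the 10 genes 2.56 to 15.8 kb), and in SNI_G15 vs SNI the 1213 tested genes over 6 kb had a median log2 fold change of -0.13 and the 5542 genes under 2 kb one of 0.10. SNI_G15 replicate 3 had the lowest level of its group for 8 of the 10 genes, and its long genes lay 0.078 below and its short genes 0.063 above the group mean (medians, log2). Without that library the median of the 10 genes was -0.058 and 0 passed the test. Sham replicate 2 stood apart in the same direction, lowest of its group for 7 of the 10 genes, with long genes 0.066 below and short genes 0.045 above the group mean. Without it 7 of the 10 genes passed in SNI vs sham, with a median of -0.14, beside 6010 over all genes. In SNI_G15 vs SNI the length offset gave a median of 0.0033, 0 passed, Cacna2d1 was at 0.16 (adjusted p = 0.0898), and Cacna1a, Cacna1c, Cacna1e and Cacna2d3 turned to small positive values (0.063, 0.066, 0.036 and 0.011). The part of length in the result was not tested beyond these values.

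**Figure D4:**
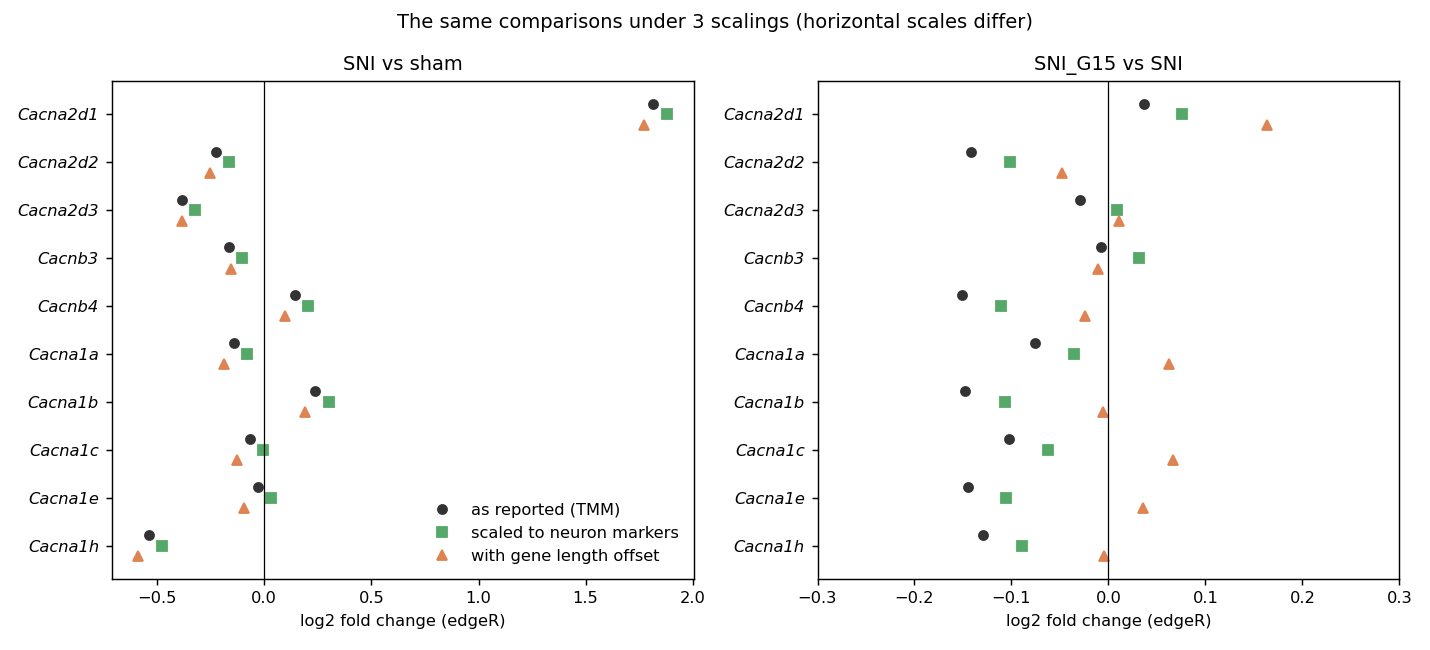
Log2 fold change (horizontal axes, which differ) of each gene in SNI vs sham and in SNI_G15 vs SNI as reported with TMM, with libraries scaled to neuron markers, and with a gene length offset. The injury values of Cacna2d1 lie between 1.77 and 1.88 under all 3, while in SNI_G15 vs SNI several points change side of 0.

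Against sham, SNI_G15 had 6 of 10 genes called, beside 43.2% of all genes (21.4% higher and 21.9% lower). Cacna2d1 was higher at 1.83 (SE 0.058, adjusted p = 1.61e-08). Lower were Cacna1h at -0.69 (SE 0.079, adjusted p = 7.66e-05), Cacna2d3 at -0.43 (SE 0.056, adjusted p = 0.000174), Cacna2d2 at -0.39 (SE 0.062, adjusted p = 0.000666), Cacna1a at -0.24 (SE 0.074, adjusted p = 0.0251) and Cacnb3 at -0.20 (SE 0.054, adjusted p = 0.0146). FPKM ranges did not overlap for 5 genes, all but Cacna1a of those called, beside 52.9% of all genes. This comparison shares its sham libraries with SNI vs sham, so the calls the comparisons have in common are not independent. Over all genes tested, those over 6 kb had a median of -0.084 and those under 2 kb one of 0.069. With the length offset the median of the 10 genes went from -0.20 to -0.093. Cacna1h was then at -0.60, Cacna2d3 at -0.38 and Cacna2d2 at -0.31, and a part of length was not tested further.

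The Cacna1a and Cacnb3 calls against sham were the weak ones. Scaled to neuron markers, which shifted the median of all genes by 0.12 in this comparison, they were at -0.11 (adjusted p = 0.240) and -0.073 (adjusted p = 0.368). Without sham replicate 3 they were at -0.19 (adjusted p = 0.101) and -0.17 (adjusted p = 0.0621), and without SNI_G15 replicate 1 at -0.24 (adjusted p = 0.0614) and -0.18 (adjusted p = 0.0564). Cacna1a also lost its call without sham replicate 1 (-0.22, adjusted p = 0.0846) and without SNI_G15 replicate 3 (-0.18, adjusted p = 0.0704), with the replicate block (-0.24, adjusted p = 0.0548) and with the length offset (-0.13, adjusted p = 0.0626). In all, Cacna1a passed in 6 of 15 alternatives and Cacnb3 in 10 of 15, while Cacna2d1, Cacna1h, Cacna2d2 and Cacna2d3 passed in all 15.

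The deposited transcript table lists 54 transcripts of the 10 genes, of which 31 passed the FPKM filter. In SNI vs sham 3 were called, beside 10.3% of all transcripts tested. The Cacna2d1 transcript XM_006235981.2 carried 98.2% to 99.0% of the gene's FPKM in every sham library, and 98.2% to 98.7% in the SNI and SNI_G15 libraries. It went from 19.1 ± 0.977 FPKM in sham to 68.6 ± 1.44 in SNI (log2 fold change 1.82, SE 0.042, adjusted p = 0.000132), so nearly all of the rise of Cacna2d1 lay in this transcript. The mean of NM_001110848.1 went from 0.29 to 0.71 FPKM and that of NM_012919.3 from 0 to 0.44. Both were below the filter and not tested. XM_017600077.1 of Cacna2d3, with 71.7% to 76.1% of the gene's FPKM in sham, fell by 0.38 on the log2 scale (SE 0.038, adjusted p = 0.00491).

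Transcripts of Cacnb3 did not move together. Its most abundant, NM_012828.2, was at 121 ± 2.80 FPKM in sham and 121 ± 4.32 in SNI, with a log2 fold change of -0.023 (SE 0.036, adjusted p = 0.816). The next, XM_006257329.3, was at 44.1 ± 5.56 FPKM in sham, 31.6 ± 3.27 in SNI and 32.9 ± 6.48 in SNI_G15, the largest difference in FPKM among the transcripts of the gene, and it did not pass the test (log2 fold change from sham to SNI -0.50, SE 0.119, adjusted p = 0.0628). The minor XM_006257330.3 went from 8.73 ± 0.205 FPKM in sham to 5.33 ± 0.524 in SNI and 3.87 ± 0.393 in SNI_G15, and it was called against sham in both (log2 fold change -0.73 with adjusted p = 0.00798, and -1.2 with adjusted p = 0.00346). The share of NM_012828.2 was 65.8% to 70.7% in sham and 73.0% to 78.2% in SNI, ranges that did not overlap.

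In SNI_G15 vs SNI 0 member transcripts were called by edgeR, beside 0.662% of all transcripts tested, and in SNI_G15 vs sham 3 were called, beside 10.4%. The third of these, XM_017591502.1 of Cacna1b, was listed at 0 in all sham libraries and between 0.05 and 2.81 FPKM in SNI_G15, so no fold is given. The split of reads between transcripts was unstable in some genes. XM_006243734.3 of Cacna2d2 took 1.17% to 59.8% of the gene's FPKM among sham libraries, although the gene's own level varied little, so transcript values of Cacna2d2 were not read further.

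Outside the 10 genes, 16 further family genes were looked up and 10 passed the filter. Cacna1f, Cacna1g, Cacna1s, Cacna2d4, Cacng1 and Cacng6 were below it. In SNI vs sham 1 of these 10 rose and 3 fell, beside 23.3% of all genes higher and 22.4% lower. Cacnb1, a β subunit best known from skeletal muscle and also present in neurons, was at 23.53, 22.69 and 23.97 FPKM in sham, 35.75, 35.47 and 35.91 in SNI and 35.78, 37.56 and 36.61 in SNI_G15. The injured libraries all lay above sham (log2 fold change 0.58, SE 0.040, adjusted p = 1.12e-06), and its share of the β class went from 11.2% to 17.2% and 17.9%.

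The 3 that fell after SNI belong to the γ genes, whose products mostly act as auxiliary subunits of AMPA-type glutamate receptors. Cacng2 (stargazin) fell by 0.57 on the log2 scale (adjusted p = 0.000103), Cacng5 by 0.38 (adjusted p = 0.000259) and Cacng8 by 0.85 (adjusted p = 0.0217). Cacng8 was low, at 1.29 ± 0.078 FPKM in sham and 0.73 ± 0.13 in SNI. Its call was lost in DESeq2 (adjusted p = 0.0809), without sham replicate 1 (-0.82, adjusted p = 0.0521) or 2 (-0.82, adjusted p = 0.0546), and without SNI replicate 3 (-0.73, adjusted p = 0.0760). Cacng7, named after its values were seen for having the highest level of the γ genes, was at 77.4 ± 4.95 FPKM in sham and 78.0 ± 2.5 in SNI.

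Between SNI_G15 and SNI, 2 of these 10 genes were called, both lower, beside 15.2% of all genes tested (7.25% lower). Cacng5 was at 8.05, 7.80 and 7.57 FPKM in SNI and 5.81, 5.43 and 4.92 in SNI_G15 (log2 fold change -0.57, SE 0.071, adjusted p = 0.00142), a call held under the alternatives, the length offset included. Cacng3 was at -0.31 (SE 0.071, adjusted p = 0.0215), and DESeq2 gave an adjusted p = 0.151. Its call was also lost without SNI replicate 1 (-0.31, adjusted p = 0.0746), 2 (-0.28, adjusted p = 0.0936) or 3 (-0.34, adjusted p = 0.0579), with the replicate block (-0.31, adjusted p = 0.0633) and with libraries scaled to neuron markers (-0.27, adjusted p = 0.0521). Against sham, SNI_G15 had 7 of these 10 genes called, beside 43.2% of all genes. Cacnb1 was higher (0.61), and Cacna1d (-0.25), Cacna1i (-0.54), Cacnb2 (-0.49), Cacng2 (-0.89), Cacng3 (-0.30) and Cacng5 (-0.97) were lower. Of these, Cacna1d, Cacna1i, Cacnb2 and Cacng3 lost the call under at least 1 alternative.

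**Figure D5:**
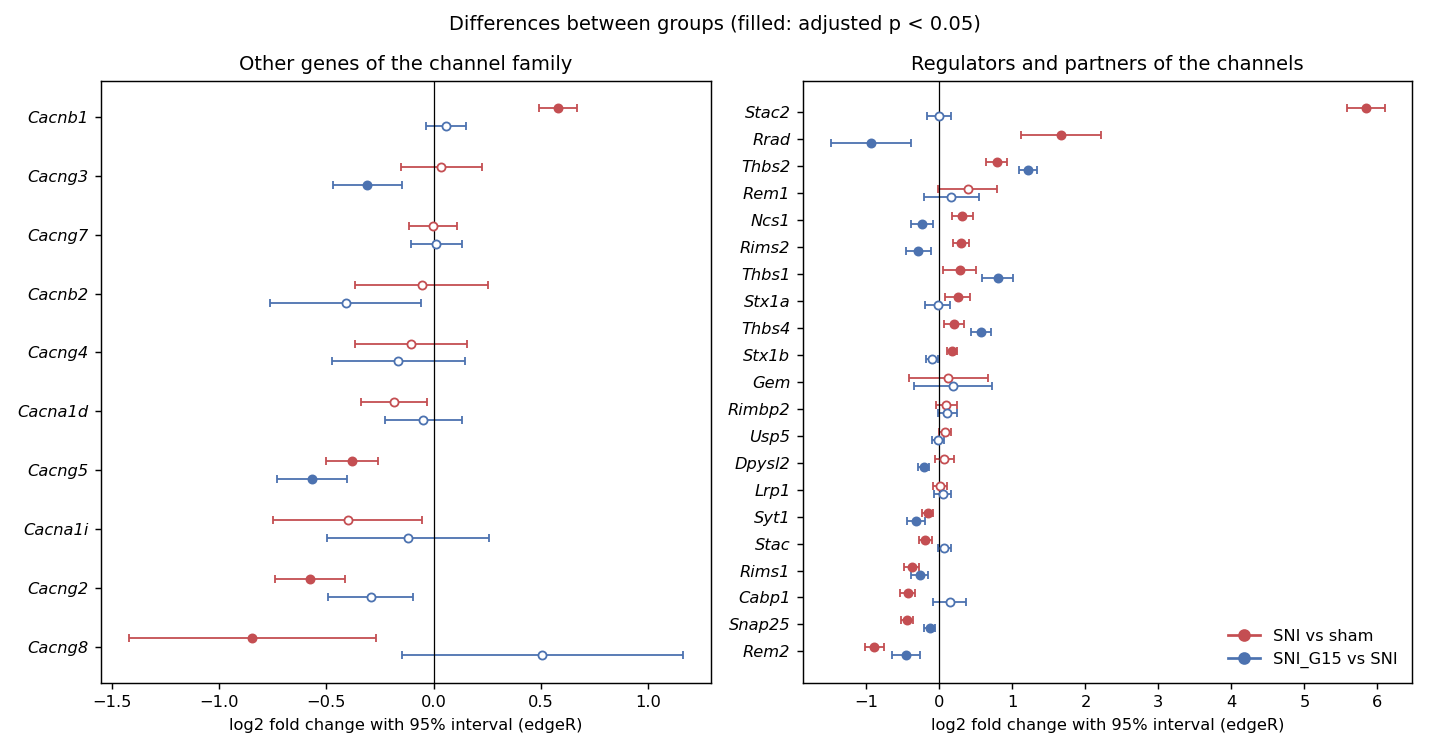
Log2 fold change (horizontal axes, which differ) with 95% interval in SNI vs sham and SNI_G15 vs SNI of 10 other channel family genes and 21 regulators and partners, from edgeR, with points filled where the adjusted p is below 0.05. Stac2 stands at 5.84 after SNI and at -0.0091 in SNI_G15 vs SNI.

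Of 22 regulators and partners of the channels, 21 passed the filter, and 9 rose and 6 fell after SNI, beside 23.3% of all genes higher and 22.4% lower. Stac2, an adaptor that binds L-type channels and slows their inactivation, was at 0.82, 0.56 and 0.46 FPKM in sham (47, 32 and 26 estimated reads), 34.79, 34.48 and 38.39 in SNI and 36.81, 37.89 and 31.37 in SNI_G15. Its injured libraries all lay far above sham (log2 fold change 5.84, SE 0.115, adjusted p = 9.60e-11). Rem2, a small GTPase that inhibits high-voltage-activated channels, fell by 0.89 (adjusted p = 5.68e-07), and Snap25, the SNARE protein that N-type and P/Q-type channels contact at release sites, fell by 0.45 (adjusted p = 3.45e-06). Thbs2, of the thrombospondins, extracellular proteins of which several bind the α2δ subunit, rose by 0.79 on the log2 scale (adjusted p = 3.69e-06).

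Between SNI_G15 and SNI, 3 of the 21 rose and 8 fell, beside 7.98% of all genes higher and 7.25% lower. The 3 were all the thrombospondins of the list. Thbs2 was at 3.72, 4.16 and 3.96 FPKM in SNI and 9.26, 9.03 and 8.97 in SNI_G15 (log2 fold change 1.22, SE 0.056, adjusted p = 5.80e-06). Thbs4 was at 0.57 (SE 0.058, adjusted p = 0.000505) and Thbs1 at 0.80 (SE 0.092, adjusted p = 0.000912), and Dpysl2, whose product CRMP2 binds N-type channels, at -0.21 (SE 0.033, adjusted p = 0.00360).

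Markers of other cells moved beside the thrombospondins. The 4 fibroblast markers summed to 343 to 348 FPKM in SNI and 473 to 495 in SNI_G15, and all 4 rose. The 5 vascular smooth muscle markers summed to 44.6 to 47.7 and 62.5 to 72.5 FPKM, and 3 of the 4 tested rose. Endothelial markers summed to 42.4 to 43.9 and 54.8 to 62.0 FPKM, with 1 of 4 higher and 1 lower. Of the other lists, 4 of 6 Schwann cell, 2 of 6 macrophage and 2 of 5 satellite glia markers were higher. In satellite glia 1 marker was lower, and 0 of 4 skeletal muscle markers passed. Over all genes tested, 7.98% were higher and 7.25% lower. None of these markers was at 0 in any library, and their part in the thrombospondin values was not tested. Cacna1c, which smooth muscle also expresses, was at -0.10 in the same comparison (95% interval -0.28 to 0.078). With the length offset Cacna1c was at 0.066, and a part of smooth muscle in its values was not tested.

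Genes that handle calcium after it has entered were counted in the same way, against the same 23.3% of all genes higher and 22.4% lower after SNI. Of 8 calmodulin and CaM kinase genes, 1 rose and 5 fell after SNI. Camk2d, a subunit of the kinase that reads calcium pulses, rose by 0.89 (adjusted p = 1.22e-07), and Camk2a fell by 0.57 (adjusted p = 4.69e-05). Of 12 pump, exchanger and buffer genes, 1 rose and 6 fell. Atp2b4, a plasma membrane calcium pump, rose from 5.66 ± 0.596 FPKM in sham to 18.4 ± 0.622 in SNI (log2 fold change 1.67, adjusted p = 1.34e-08), while the pump Atp2b3 fell by 0.56 (adjusted p = 9.79e-07) and the buffer Calb2 by 0.80 (adjusted p = 3.55e-07). Of 9 tested genes for store and store-operated channels, 2 rose and 4 fell, with the plasma membrane channels Orai1 at 0.69 (adjusted p = 2.97e-05) and Orai3 at 0.45 (adjusted p = 0.000304).

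Between SNI_G15 and SNI, 6 of the 12 pump, exchanger and buffer genes fell and 0 rose in edgeR's test, beside 7.25% of all genes lower and 7.98% higher, with Atp2b3 at -0.32 (adjusted p = 0.00203), Atp2a2 at -0.26 (adjusted p = 0.00323), Atp2b2 at -0.41 (adjusted p = 0.00421) and Slc8a1 at -0.28 (adjusted p = 0.0193). The call of Slc8a1 was lost with the length offset (adjusted p = 0.0696), and the other 3 were kept. Of the CaM kinase list 1 fell, Camk4 (adjusted p = 0.0496), which lost its call in most alternatives, and 0 of the store list passed. The median of the 12 genes was -0.19, below the -0.12 of the channel genes.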

How the data were processed

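DRG RNA-Seq of 3 sham, 3 SNI and 3 SNI_G15 libraries was analysed. For each gene and transcript the authors deposited an FPKM level, a gene being the sum of its transcripts, and an estimated count without normalization, often not a whole number. The aligner and counter are not given in the sources used here. The labels name a mouse build (GRCm38, mm10) although the identifiers are rat, so no coordinates of the deposited values are given. The extraction note in the labels names another cell type. Columns headed as control were taken as sham. Deposited group averages and columns of the authors' own comparisons (fold changes and p-values) were not used, nor were 18 other per-sample columns.

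After rounding, counts entered edgeR's quasi-likelihood test (version 4.0.16 under R 4.3.3, TMM scaling) with the 6 libraries of each comparison only, over genes or transcripts with FPKM of at least 1 in at least 1 library. Call threshold was an adjusted p of 0.05. The authors' methods name DESeq2 on such genes. Alternatives were DESeq2 1.42.0, limma-trend 3.58.1 on log2 of FPKM plus 1 or 0.1, RLE, scaling to 10 neuron markers, all genes with a count, all 9 libraries, a replicate block, the study's thresholds, each library left out and, added after seeing the data, a gene length offset. Scripts were tested on simulated data. Levels are mean ± SD, and intervals are 95%. Subunit shares are per library, by FPKM.

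The 10 genes, the lists and the tests were chosen with earlier results of these data known. Named were all 10 genes, called family genes, and up to 4 genes per other list with the smallest adjusted p. Promoters came from RefSeq, GRCr8. Protein sequences were not used here. All replicate pairs differed by more than sampling noise, with 2.56 to 8.50 as the chi-square per gene.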

Additional observations from a re-analysis of the deposited data

How the results depend on the processing

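With the study's thresholds (p under 0.05 before adjustment and a log2 change of 0.5 or more either way), the channel genes called went from 6 to 2 in SNI vs sham and from 6 to 2 in SNI_G15 vs sham (Cacna2d1 and Cacna1h), since most changes were small. The share of all genes past these thresholds was not counted, so these 2 counts have no background beside them. Under the other alternatives 6 to 8 were called in SNI vs sham, 4 to 6 in SNI_G15 vs sham and 0 in SNI_G15 vs SNI. Over all genes these alternatives called 5343 to 6863, 5101 to 6880 and 893 to 2419 in the same order. The main test called 6537, 6186 and 2179. All values that changed sign belonged to genes not called, apart from Npy, an injury marker, at -0.069 in SNI_G15 vs SNI with the length offset. With that offset Cacna1a was at 0.063, Cacna1c at 0.066, Cacna1e at 0.036 and Cacna2d3 at 0.011 in SNI_G15 vs SNI, and Cacnb4 at 0.068 in SNI_G15 vs sham. Scaled to neuron markers, Cacna1e was at 0.031 in SNI vs sham, Cacna2d3 at 0.0090 and Cacnb3 at 0.031 in SNI_G15 vs SNI, and Cacnb4 at 0.093 in SNI_G15 vs sham. With limma, Cacnb4 was at 0.0036 (pseudocount 1) and 0.0039 (pseudocount 0.1) in SNI_G15 vs sham.

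Leaving out 1 library gave 6 to 7 channel genes in SNI vs sham, 0 in SNI_G15 vs SNI and 4 to 6 in SNI_G15 vs sham. Over all genes it gave 5382 to 6237, 893 to 2333 and 5101 to 6015 in the same order. It gave 3 to 5 member transcripts in SNI vs sham (5 without SNI replicate 2), 0 in SNI_G15 vs SNI and 2 to 4 in SNI_G15 vs sham. Over all transcripts it gave 1361 to 1858 (1361 without SNI replicate 2), 9 to 46 and 1279 to 1962. With no library left out these were 2671, 172 and 2698. Values ranged over 0 for Cacna1e in SNI vs sham (-0.075 to 0.026), for Cacna2d3 (-0.066 to 0.0047) and Cacnb3 (-0.053 to 0.030) in SNI_G15 vs SNI, and for Cacnb4 in SNI_G15 vs sham (-0.074 to 0.027). The cause was not tested.

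The replicate numbers did not pair the libraries, with correlations of -0.12 to 0.092 between same-numbered libraries, and 0 to 3 of 6 libraries per comparison correlated best with their own number. With the replicate block 7 channel genes were called in SNI vs sham, 0 in SNI_G15 vs SNI and 5 in SNI_G15 vs sham, beside 6440, 1292 and 5735 over all genes. Member transcripts called in SNI_G15 vs sham went from 3 to 1 with the block, and those over all transcripts from 2698 to 400. Over all genes, those called in SNI_G15 vs SNI were 2179, 1292 with the block, 1688 with the length offset and 893 to 2333 with 1 library left out.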

Other observations

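Over the 9 libraries, the genes whose log2 CPM had the highest Pearson correlation with Cacna2d1 were Sod2 (0.999), Crisp3 (0.999), Ipo5 (0.999), Adcyap1 (0.999) and Vip (0.999). The libraries fall into a sham set and an injured set for Cacna2d1, so the values describe the shared step between those sets, and 145 genes had a correlation over 0.99. Adcyap1 and Vip, which encode neuropeptides, were at 6.19 and -3.21 log2 CPM in sham, at 8.30 and 5.07 in SNI and at 8.26 and 5.24 in SNI_G15. The sham value of Vip lies near the floor of this scale and is not read as a level.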
